A study of Morchella sextelata with 15 samples.

Results

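The average response of Morchella sextelata, a cultivated black morel, to 4 herbicides was measured in mycelium as the equally weighted mean of the 4 herbicide groups against mycelium grown without herbicide. All 15 RNA-seq libraries of the series enter this comparison, 12 from herbicide-treated and 3 from control mycelium. Per the labels, all libraries came from wild-type mycelium, with 3 libraries each for trifluralin, pendimethalin, S-metolachlor, acetochlor and the untreated control. The series description gives 5 days of culture on potato dextrose agar at 20 °C and a herbicide concentration of 10 times the normal application rate, so the doses are the same multiple of different rates, and the concentrations may differ. The sources used here do not say whether the 3 libraries of a group came from separate cultures, so p-values measure the spread between these libraries, which may be technical. In these bulk samples fewer cells of a kind and less RNA per cell cannot be told apart.

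Trifluralin and pendimethalin are dinitroanilines, which bind plant tubulin and stop microtubules from growing. Acetochlor and S-metolachlor belong to the chloroacetanilides, inhibitors of the elongases that make very-long-chain fatty acids in plants. A fungus is not the intended target of either class. Filamentous fungi are known to meet foreign compounds with cytochrome P450 oxidation, conjugation to glutathione and export by membrane pumps, and a response shared by unlike compounds is often called a general stress response. The deposited tables do not pair their 20602 transcripts with genes, and the reference table of 13182 genes holds 0 of their names, so none of these functions can be assigned to a transcript here. Transcripts are therefore named by their assembly name only, with at most 2 that rose and 2 that fell for each question.

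Library totals lay between 22923346 and 24766457 expected counts, which are estimated fragments per transcript. Of the 20602 transcripts, 17555 had enough counts to be tested and 3047 did not. Spearman correlations across transcripts within a group were between 0.924 and 0.978, with the lowest value in pendimethalin. S-metolachlor libraries correlated with control libraries at 0.781 to 0.856, below the 0.864 to 0.946 of the other herbicides. They are correlations across transcripts, which do not vary independently, and serve as a description. S-metolachlor replicate 1 also held a set of 1356 transcripts at 5 or more times the level of any other library and at least 0.2 CPM, which is the count scaled to a common library total, of which 157 were tested. None of the 157 was called in the pooled comparison (count 0), and all 157 were called for differences among the herbicides. Over all tested transcripts the shares called were 27.2% and 40.2%. The set was chosen by its level in 1 herbicide library, so calls for differences among herbicides are largely built in and are given as a description. The count of such calls was 6895 without the set and 7059 with it.

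The herbicide mean differed from control in a large minority of the tested transcripts, and the transcripts that fell had made up a large part of the control transcriptome. In the edgeR quasi-likelihood test with Benjamini-Hochberg adjustment over all transcripts, 4769 were called at an adjusted p under 0.05, or 27.2% of those tested. Of these, 2196 were higher with herbicide (12.5% of those tested) and 2573 were lower (14.7%). The called rises had a median log2 fold change of 1.14 and the called falls of -1.33, against 0.02 over all transcripts. At least a 2-fold change was estimated for 1257 rises and 1709 falls, and at least an 8-fold change for 269 rises and 288 falls. The fold is a difference of averaged log2 means, so each herbicide counts equally whatever its level.

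**Figure D1:**
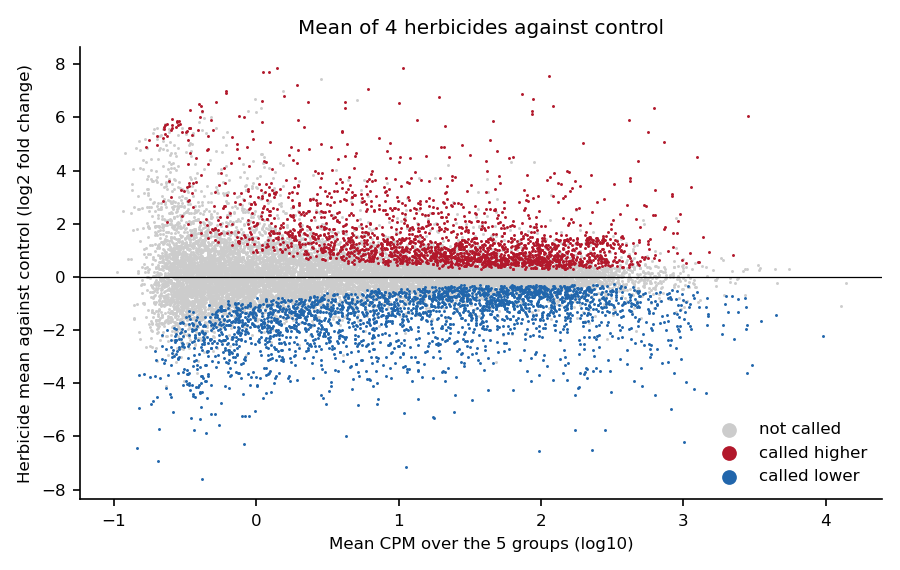
Pooled change of each of the 17555 tested transcripts, as the log2 fold change of the mean of 4 herbicides against control, over its mean level in CPM (log10 axis). Red points are the 2196 called higher, blue points the 2573 called lower and grey points those not called; calls are scarcest at the lowest levels.

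How many of the calls were rises depended on how libraries were scaled. With TMM scaling, used for every value here unless another is named, 46% of calls were rises. Scaled to library totals only, an alternative chosen after seeing the data, 62.3% of 4926 calls were rises, and the median change of all transcripts moved from 0.02 to 0.20 on the log2 scale. In limma on log2(FPKM + 1) the share was 66.4%, and it was 51.5% when FPKM was divided by the same TMM factor. The factors were 0.83 to 0.982 in the control libraries and 0.928 to 1.09 in the herbicide libraries. Directions below are relative to the TMM scale.

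The count of calls also depended on 2 of the control libraries. It was 2716 without control replicate 1 and 2605 without control replicate 3. Treating the 12 herbicide libraries as 1 group, so that differences between herbicides count as spread, gave 1401 calls, and asking for a change larger than 2-fold gave 728. For 5875 transcripts, 33.5% of those tested, the 95% interval of the pooled change lay within 2-fold in both directions, and for the others it reached past 2-fold.

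In the plainest form of the comparison, all 12 herbicide libraries lay above all 3 controls in 786 transcripts (4.48% of those tested) and below all 3 in 851 (4.85%). Among the called transcripts this held for 760 rises and 815 falls. No transcript called lower was without counts in all 12 herbicide libraries (count 0), and 57 called higher had 0 counts in the 3 controls. These counts cannot be compared, since an absence from 12 libraries is harder to reach than one from 3. The shares of all tested transcripts without counts in these libraries were not computed.

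The transcripts called higher held 7.27% ± 1.75 of all expected counts in control (SD, n = 3). They held 18.7% ± 1.6 with trifluralin, 17% ± 2.46 with pendimethalin, 24% ± 0.771 with S-metolachlor and 16.2% ± 2 with acetochlor. The transcripts called lower held 42.4% ± 4.04 of the control counts, and 22.7% ± 3.23, 22.2% ± 1.43, 12.9% ± 0.619 and 25.6% ± 1.56 in the same order of herbicides. These transcripts were chosen with the same libraries, so the direction is fixed by the choice and only the sizes are described. In every herbicide library the rising set took a larger share, and the falling set a smaller share, than in any control library.

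**Figure D2:**
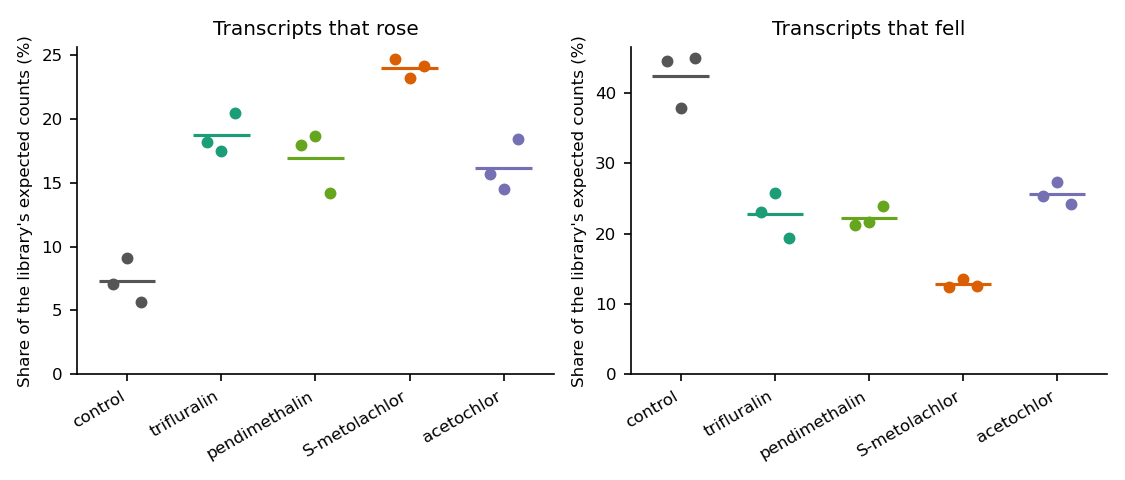
Share of each library's expected counts, in percent, held by the 2196 transcripts called higher (left) and the 2573 called lower (right); each point is 1 library and each line the mean of 3. The S-metolachlor libraries sit at 23.2 to 24.7% on the left and 12.4 to 13.6% on the right, farthest from control, and the other herbicides lie between.

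The 10 falling transcripts most abundant in control together held 6.44% ± 0.432 of the control counts, of the 42.4% held by the whole falling set. Their share was 2.41% ± 0.645 with trifluralin, 2.43% ± 0.386 with pendimethalin, 0.952% ± 0.134 with S-metolachlor and 3.82% ± 0.864 with acetochlor. The 10 rising transcripts most abundant with herbicide went from 0.486% ± 0.0658 in control to 2.09% ± 0.504, 1.29% ± 0.265, 2.39% ± 0.0298 and 1.39% ± 0.287. Trifluralin and S-metolachlor had the highest shares of these 10 rising transcripts. Both lists were picked from the pooled calls by these same shares, the falling by control and the rising by the herbicide mean. The direction is therefore fixed by the choice, and the sizes and the order of herbicides are a description.

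The largest rise among called transcripts with no overlap between herbicide and control libraries, and with at least 10 CPM in the herbicide or the control mean, was in TRINITY_DN8555_c0_g2_i1_1. Its TMM-scaled CPM was 0.603, 0.126 and 0.1 in the controls, 183, 168.1 and 260.8 with trifluralin, 2.14, 6.81 and 13.3 with pendimethalin, 11.6, 21.4 and 12.2 with S-metolachlor, and 363, 320.2 and 340.2 with acetochlor. Trifluralin and acetochlor libraries were high and the other herbicide libraries intermediate. Pooled over herbicides, the log2 change was 7.55 with an SE of 0.72 (edgeR adjusted p = 2.99e-05). Leaving out control replicate 1 made it 8.77, and over all alternatives it was 5.20 to 8.98. The change against control was 9.50 with trifluralin, 4.72 with pendimethalin, 5.75 with S-metolachlor and 10.25 with acetochlor on the log2 scale, and the herbicides differed from each other (edgeR adjusted p = 4.19e-05).

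The next largest was TRINITY_DN10594_c0_g1_i1_3, at 0.418, 0.419 and 0.05 CPM in the controls. It stood at 5.45, 207.5 and 183 CPM with trifluralin, 166.4, 360.4 and 0.534 with pendimethalin, 64, 49.2 and 55.5 with S-metolachlor and 0.99, 2.48 and 0.424 with acetochlor. The lowest acetochlor library thus barely exceeded the highest control, and the dinitroaniline libraries ranged over orders of magnitude. The pooled log2 change of 6.87, with an SE of 1.76 (edgeR adjusted p = 0.012), was no longer called without control replicate 1 (adjusted p = 0.0543) and without control replicate 3 (0.0637); over all alternatives the adjusted p ranged from 7.46e-08 to 0.214.

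Under the same conditions of no overlap and at least 10 CPM, the largest fall was in TRINITY_DN13795_c0_g1_i1_3. It was at 219.8, 208.9 and 896 CPM in the controls, 4.83, 5.7 and 2.28 with trifluralin, 5.37, 8.99 and 24.5 with pendimethalin, 0.751, 0.231 and 0.238 with S-metolachlor, and 26.9, 16.6 and 22.4 with acetochlor. Every herbicide library was far below every control, with the S-metolachlor libraries lowest. Pooled over herbicides, the log2 change was -6.55 with an SE of 0.45 (edgeR adjusted p = 5.54e-06). Leaving out control replicate 3, the highest control, made it -5.55.

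TRINITY_DN2242_c0_g1_i1_1, the next largest fall under these conditions, was at 978.2, 688.8 and 1347 CPM in the controls. It was at 22.2, 197.7 and 22.4 CPM with trifluralin, 17.7, 37.8 and 108.9 with pendimethalin, 0.711, 0.0769 and 0.397 with S-metolachlor and 2.97, 16.4 and 6.75 with acetochlor. The pooled log2 fold change was -6.50 (SE 0.64, edgeR adjusted p = 3.54e-05), and -4.90 without the S-metolachlor group. S-metolachlor libraries were again lowest, at a log2 fold change of -11.30 against -3.64 with trifluralin, -4.20 with pendimethalin and -6.85 with acetochlor, and the herbicides differed from each other (edgeR adjusted p = 0.00145).

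How evenly the herbicides carried the response was tested by contrasts among the 12 herbicide libraries, which leave out the controls that every comparison with control shares. The control libraries stayed in the fit, where they entered the filter, the scaling and the estimate of the spread. The herbicides differed from each other in 7059 transcripts (edgeR F-test over 3 contrasts, adjusted p under 0.05), or 40.2% of those tested. Among the 4769 transcripts of the pooled response, 2563 were called for such differences, which is 53.7% of the pooled calls and 36.3% of the transcripts that differed among herbicides. The share was 51.3% for rises and 55.8% for falls, and 35.2% among transcripts not called in the pooled comparison. Both kinds of call were more frequent at higher expression. In 4 bins of equal size, from the lowest to the highest mean CPM, differences among herbicides were called in 24.6%, 40.4%, 45.9% and 50% of transcripts, pooled rises in 2.89%, 10.1%, 17.6% and 19.5%, and pooled falls in 8.54%, 13.9%, 16.2% and 20%.

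Most calls for differences among herbicides were lost without S-metolachlor. With its 3 libraries left out, the other herbicides differed from each other in 176 transcripts, and in 437 (2.49%) when its libraries stayed in the fit only to estimate the spread. Leaving out trifluralin, pendimethalin or acetochlor in its place left 6827, 7879 and 5894. Of the 4769 pooled calls, 230 (4.82%) were called for differences among trifluralin, pendimethalin and acetochlor, 153 of them rises and 77 falls. A transcript that missed the threshold is not shown to respond alike: the unadjusted p was under 0.05 in 3505 transcripts, and the median 95% interval of a single herbicide's departure from the other 3 reached 0.76 to 0.77 on the log2 scale to either side.

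**Figure D3:**
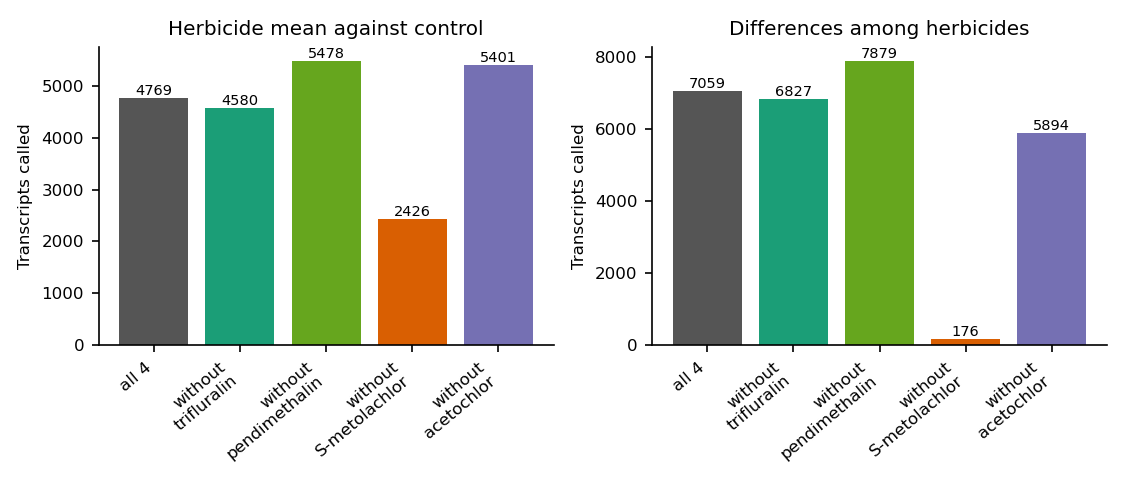
Number of transcripts called in edgeR fits with all 4 herbicides and with each herbicide's libraries left out, for the mean of the herbicides against control (left) and for differences among the herbicides (right). Without S-metolachlor the counts are 2426 and 176, the lowest bar of each panel.

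Each herbicide was then set against the mean of the other 3. S-metolachlor departed in 7736 transcripts (44.1% of those tested), acetochlor in 2344 (13.4%), trifluralin in 1139 (6.49%) and pendimethalin in 745 (4.24%). The other 3 include S-metolachlor for the last 3 of these, so their departures are partly its own. Single libraries moved these counts: trifluralin departed in 494, 560 and 478 transcripts without its replicates 1, 2 and 3 and in 660 and 674 without S-metolachlor replicates 1 and 3. Pendimethalin departed in 344 and 372 without its replicates 1 and 2 and in 407 and 436 without S-metolachlor replicates 1 and 3, and acetochlor in 943 and 1195 without its replicates 1 and 2. Among the 2196 pooled rises S-metolachlor departed upward in 961 and downward in 232, and among the 2573 falls downward in 1291 and upward in 175. S-metolachlor is part of the mean that chose these transcripts, so an excess of departures in the pooled direction is partly built in and is given as a description. In rises chosen without it, it was called higher than the others in 391 and lower in 356. Acetochlor was also part of the choice, with 369 rises in which it was lower than the others against 122 in which it was higher, and 627 falls in which it was higher against 45 in which it was lower. Trifluralin was lower in 143 rises and higher in 96, and pendimethalin lower in 127 and higher in 37. Among the falls they were higher in 272 and 212 and lower in 42 and 20. Over all tested transcripts the direction of these departures depended on the test and the unit. They were upward in 65.4% of the calls for trifluralin, 65.9% for pendimethalin and 59.6% for acetochlor in edgeR, but in 40.5%, 38% and 38.3% in limma on log2(FPKM + 1), and in 46.3%, 39.2% and 47.8% with FPKM divided by the TMM factor. DESeq2 gave 53.7%, 55.8% and 51.7%. For S-metolachlor the share was 54% in edgeR and 52.4% to 59.8% in these alternatives.

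The order of levels within the same transcripts is a description too, since all 4 herbicides entered the choice. S-metolachlor had the highest fitted level of the 4 herbicides in 1304 of the 2196 rises, or 59.4%, against 39.2% over all tested transcripts. It had the lowest in 1794 of the 2573 falls, or 69.7%, against 36.3% of all tested. An even split would give 25% each. Acetochlor was lowest of the 4 in 42.8% of the rises and highest of the 4 in 46.4% of the falls, against 25.6% and 24.4% of all tested. In rises chosen without S-metolachlor, its median log2 fold change of 1.06 was below the 1.15 of the 3 herbicides that chose them, while in falls chosen without it the medians were -1.64 and -1.40. Trifluralin and pendimethalin were highest of the 4 in 14% and 16.2% of the rises, against 17.3% and 19.1% of all tested. They were lowest in 14.4% and 9.52% of the falls, against 23.4% and 16.2% of all tested.

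The 4 comparisons with control share their 3 control libraries, so their values are given side by side only. Over all tested transcripts, S-metolachlor was called against control in 46.1%, trifluralin in 14.7%, pendimethalin in 12.9% and acetochlor in 9.72%. In the pooled rises the median log2 fold change was 1.37 with S-metolachlor, 1.03 with pendimethalin, 0.99 with trifluralin and 0.84 with acetochlor. In the pooled falls it was -1.91, -1.10, -1.22 and -0.86 in that order. A rise of at least 2-fold was estimated for 65.3%, 51%, 49.5% and 41.7% of the pooled rises, against 26.5%, 15.3%, 13.7% and 12% of all tested transcripts. Falls of at least 2-fold were estimated for 79.1%, 54.8%, 58.2% and 44.3% of the pooled falls, against 22.9%, 14.5%, 18.4% and 14.2%. Summed over the rises, S-metolachlor supplied 33.2% of the log2 change, pendimethalin 23.6%, trifluralin 23.5% and acetochlor 19.7%. Over the falls the shares were 37.7%, 21%, 23.5% and 17.8%. All 4 herbicides entered the choice of these transcripts, so the medians and shares within them are a description.

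**Figure D4:**
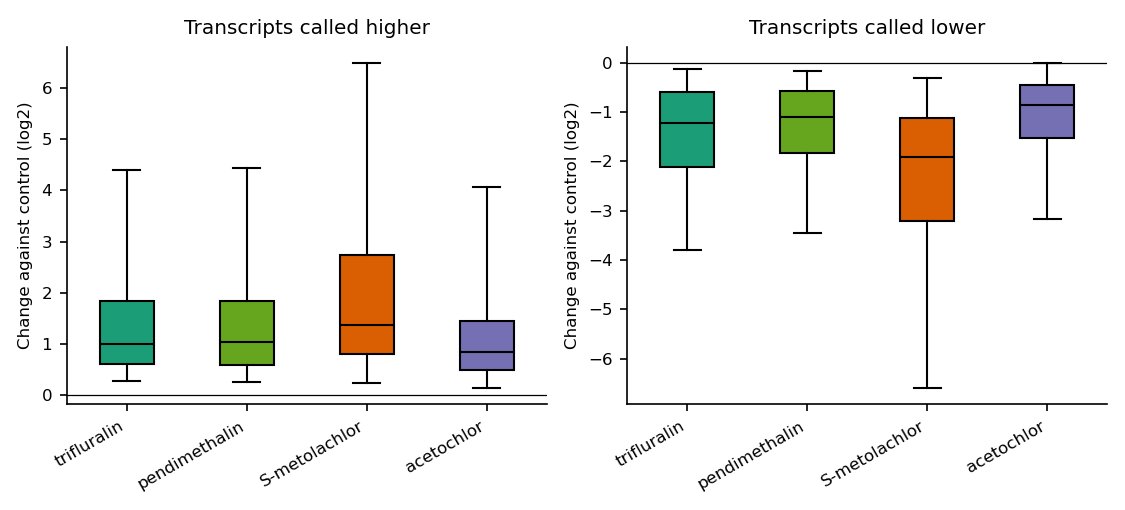
Log2 fold change of each herbicide against control in the 2196 transcripts called higher (left) and the 2573 called lower (right) in the pooled comparison; boxes span the quartiles with the median as a line, and whiskers the 5th to 95th percentile. S-metolachlor has the largest medians, 1.37 and -1.91, and acetochlor the smallest, 0.84 and -0.86.

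The pooled response did not rest on S-metolachlor alone. With all libraries in the fit, the mean of trifluralin, pendimethalin and acetochlor differed from control in 3223 transcripts (18.4%), 1546 higher and 1677 lower, and 2918 of these had the same direction and a call with all 4 herbicides. That overlap is partly built in, since the pooled mean includes these herbicides and the same controls. With the S-metolachlor libraries left out of the fit as well, 2426 were called, and 2287 of these were shared with the pooled calls. With all libraries again in the fit, leaving another herbicide out of the mean gave 4873 (27.8%) without trifluralin, 5057 (28.8%) without pendimethalin and 5505 (31.4%) without acetochlor. In that fit the number of pooled calls lost was 1851 without S-metolachlor, 443 without trifluralin, 307 without pendimethalin and 231 without acetochlor. In the 1677 falls defined without it, S-metolachlor was called lower than the others in 569 and higher in 324. Acetochlor, in the 2621 rises and 2884 falls that the others defined, had medians of 0.69 against 1.22 and -0.71 against -1.42, and was called lower than the others in 548 rises and higher in 81, and higher in 829 falls and lower in 21. The choice favours the herbicides that define it, and all of these values share the controls.

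The libraries of 1 herbicide also differed from each other. The share of pooled rises in which a library exceeded all 3 controls was 78.3% in pendimethalin replicate 3, against 90.1% and 90.8% in replicates 1 and 2. For falls below all controls it was 75.3% against 87.6% and 85.3%. The 3 acetochlor libraries were at 78.9% to 83.7% and 71.9% to 80.5%, trifluralin at 87.6% to 93.9% and 82.7% to 89.8%, and S-metolachlor at 91.6% to 92.5% and 92.4% to 93.6%. Over all tested transcripts, the herbicide libraries exceeded all controls in 30% to 42.1% and were below all of them in 28.5% to 35.8%. Without pendimethalin replicate 3 the pooled comparison called 5462 transcripts.

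For 1021 of the pooled calls, or 21.4%, the 95% intervals of all 4 departures from the mean of the other herbicides lay within 2-fold. The intervals were not adjusted for the number of transcripts, so single members are not shown to be even. The 1021 were 650 rises and 371 falls, and the share over all tested transcripts was similar, at 22%. The even transcripts described next were the rises and falls of at least 4-fold with the smallest range among herbicides; the choice itself makes them even, and no test of evenness is drawn from them.

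TRINITY_DN4470_c0_g1_i1_5 rose by nearly the same factor with each herbicide. It was at 5.52, 6.16 and 6.35 CPM in the controls, 23.9, 30.8 and 31 with trifluralin, 28.6, 42.1 and 13.8 with pendimethalin, 29.4, 23.8 and 25.1 with S-metolachlor and 21.9, 20.8 and 20.7 with acetochlor. The pooled log2 fold change was 2.10 (SE 0.27, edgeR adjusted p = 0.000199), with 1.81 to 2.25 for the single herbicides. TRINITY_DN10488_c0_g1_i1_4, with group means of 3.22 ± 1.95 CPM in control, 14 ± 5.43 with trifluralin, 13 ± 1.46 with pendimethalin, 20.4 ± 2.19 with S-metolachlor and 13.8 ± 9.7 with acetochlor (SD, n = 3 each), had a pooled change of 2.22 (SE 0.46, edgeR adjusted p = 0.00369). Its 12 herbicide libraries lay between 6.98 and 24.9 CPM, all above the highest control at 5.28.

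TRINITY_DN6087_c0_g1_i1_3 fell from 56.5, 42.9 and 65.3 CPM in the controls to 9.58, 10.1 and 10.6 with trifluralin, 15.3, 2.82 and 13.8 with pendimethalin, 6.44, 11.3 and 6.75 with S-metolachlor and 12.7, 10.1 and 7.13 with acetochlor. The herbicide groups overlapped each other throughout and did not reach the controls. The pooled log2 fold change was -2.50 (SE 0.32, edgeR adjusted p = 0.000181), and the 4 changes spanned 0.38. TRINITY_DN10079_c0_g1_i1_1 went from 27.7 ± 11 CPM in control to 6.24 ± 5.19, 5.31 ± 1.45, 4.56 ± 1.35 and 5.61 ± 2.17 with trifluralin, pendimethalin, S-metolachlor and acetochlor (SD, n = 3 each), a pooled change of -2.36 (SE 0.35, edgeR adjusted p = 0.000474). These 4 even transcripts kept their call and direction under all 31 alternatives.

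**Figure D5:**
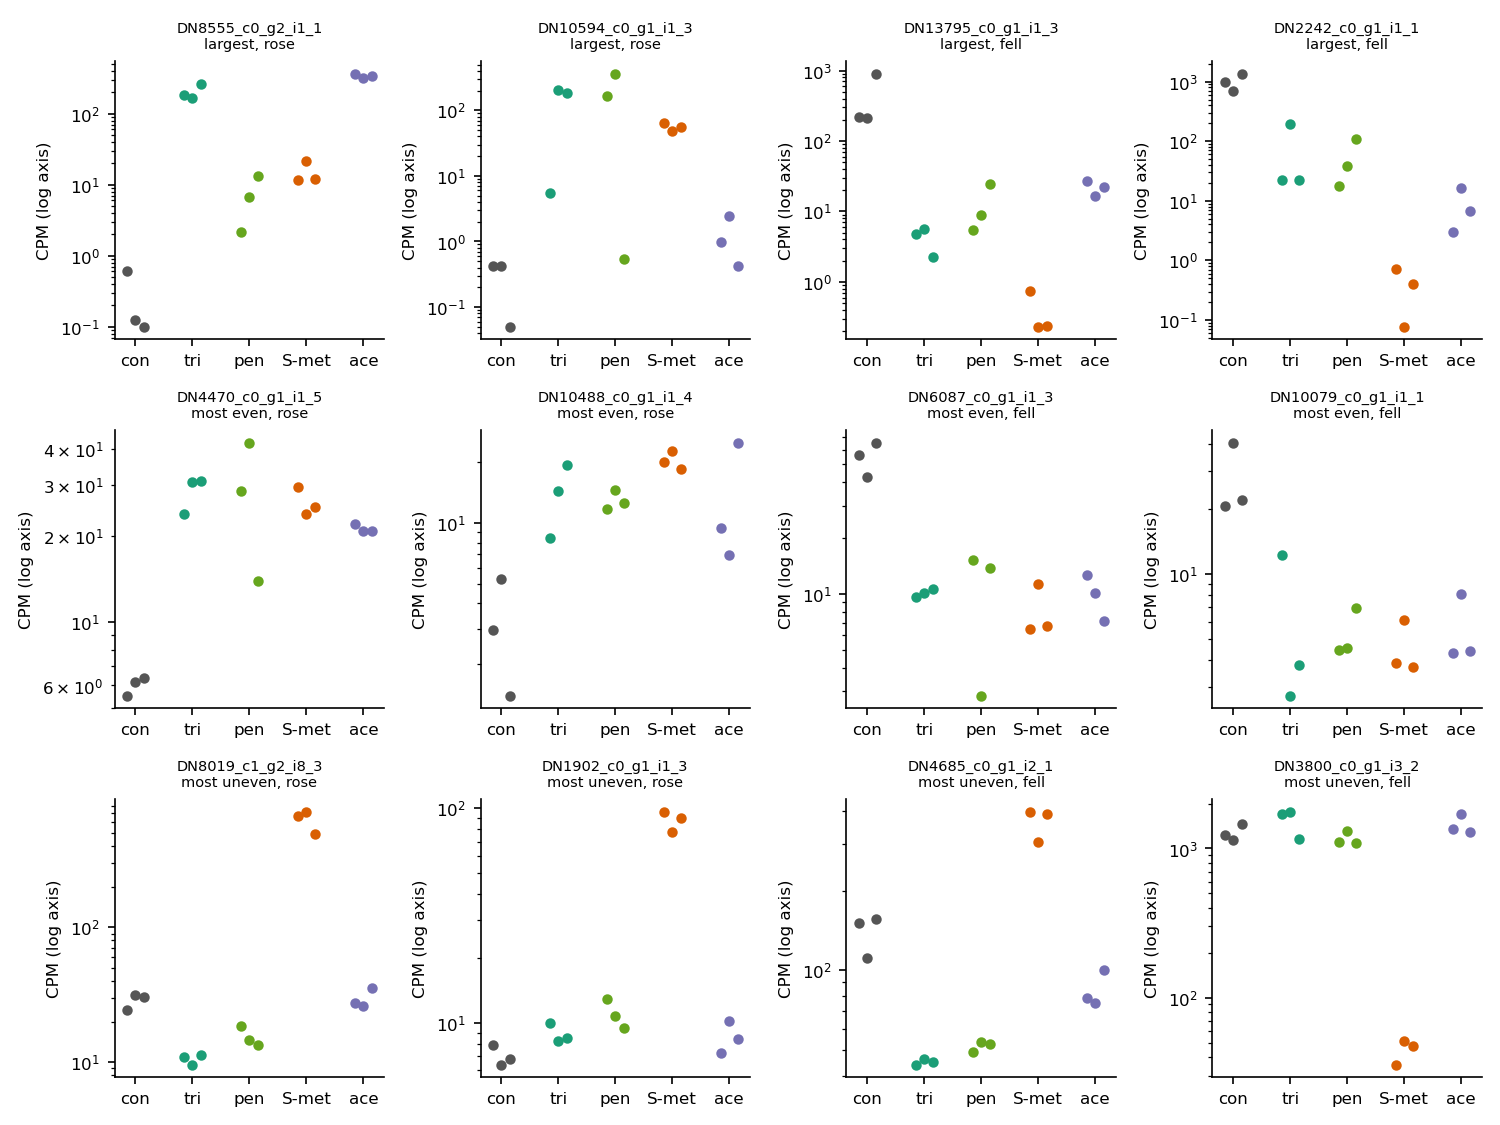
Level of 12 transcripts in each library as TMM-scaled CPM on a log axis; con is control, tri trifluralin, pen pendimethalin, S-met S-metolachlor and ace acetochlor. The top row shows the largest pooled changes without overlap and the middle row the most even changes of at least 4-fold. Both rows needed at least 10 CPM in the herbicide or the control mean. The bottom row shows the 2 called rises and 2 called falls with the smallest p for differences among herbicides, where the S-metolachlor points stand apart from all others.

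At the other end, the pooled mean can be called although 1 herbicide supplies most of the change. Among pooled calls with at least 10 CPM in the highest group, the 2 rises and 2 falls with the smallest p for differences among herbicides all had S-metolachlor libraries apart from the rest. TRINITY_DN8019_c1_g2_i8_3 was at 24.4, 31.5 and 30.4 CPM in the controls and at 674.7, 718.5 and 488.7 with S-metolachlor, but at 10.9, 9.59 and 11.4 with trifluralin, 18.5, 14.6 and 13.4 with pendimethalin and 27.5, 26.2 and 35.6 with acetochlor. The S-metolachlor libraries were above all others, both dinitroanilines were below control and acetochlor overlapped it. The pooled log2 change was 0.54 with an SE of 0.16 (edgeR adjusted p = 0.0227), and became -0.76 when the S-metolachlor group was left out (adjusted p = 0.0103). The call was lost when control replicate 1 (adjusted p = 0.178) or control replicate 3 (0.0931) was left out, and the adjusted p ranged from 0.00114 to 1 over all alternatives. The lowest value came from leaving out the trifluralin group. The highest came from asking for a change larger than 2-fold, which is another question. The herbicides differed at an edgeR adjusted p of 2.72e-09.

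TRINITY_DN1902_c0_g1_i1_3 was at 7 ± 0.759 CPM in control, 8.89 ± 0.922 with trifluralin, 11 ± 1.75 with pendimethalin, 88 ± 9.55 with S-metolachlor and 8.59 ± 1.48 with acetochlor (SD, n = 3 each). Its pooled change of 1.24 (SE 0.15, edgeR adjusted p = 0.000159) fell to 0.43 without S-metolachlor and was then not called (adjusted p = 0.124; 3.44e-13 to 0.215 over all alternatives). Pendimethalin was also called above control, at a log2 fold change of 0.66 (edgeR adjusted p = 0.0306). Trifluralin (0.34) and acetochlor (0.30) were not called, though 11 herbicide libraries lay above all controls. TRINITY_DN3800_c0_g1_i3_2, an abundant transcript at 1237, 1146 and 1452 CPM in control, was at 35.5, 50.9 and 47.4 with S-metolachlor and between 1080.3 and 1759 in the other 9 herbicide libraries, which overlapped the controls. Its pooled change was -1.13 (SE 0.16, edgeR adjusted p = 0.000349), and 0.10 without S-metolachlor (adjusted p = 0.74; 3.91e-10 to 0.859 over all alternatives).

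TRINITY_DN4685_c0_g1_i2_1 shows a called fall to which S-metolachlor ran opposite. It was at 151.4, 111.6 and 156.6 CPM in control, 44, 46.1 and 44.9 with trifluralin, 49.3, 53.9 and 52.8 with pendimethalin and 79, 75.6 and 100.2 with acetochlor, but at 396.4, 306.5 and 389 with S-metolachlor. The pooled log2 fold change was -0.60 (SE 0.13, edgeR adjusted p = 0.00417), and -1.26 without S-metolachlor. It lost its call without trifluralin (-0.25, adjusted p = 0.218) and without pendimethalin (-0.32, adjusted p = 0.103), with a range of 9.82e-05 to 1 over all alternatives. The upper end came from asking for a change larger than 2-fold, which is another question. With the 12 libraries as 1 group its change was -0.04.

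Of the 7059 transcripts that differed among herbicides, 4496 were not called in the pooled comparison. In 126 of these, counting those with at least 10 CPM in the highest group, 1 herbicide was called higher and another lower than control. At any level, such opposed calls were found in 207 of the 17555 tested transcripts, 173 of them not called in the pooled comparison. S-metolachlor was the herbicide called higher in 104 of the 207 and called lower in 103. All of these calls share the 3 controls. The widest spread among the 126 was in TRINITY_DN7825_c0_g1_i2_5. It was at 41.3, 41.4 and 30.2 CPM in control, 1164, 551.5 and 738.5 with trifluralin, 299.5, 48.5 and 649.1 with pendimethalin and 1268, 1225 and 1072 with acetochlor, whereas the S-metolachlor libraries held 0.237, 0.269 and 0 CPM. The pooled change was 1.20 with a 95% interval of -0.10 to 2.50 (edgeR adjusted p = 0.157), and the herbicides differed at an edgeR adjusted p of 2.92e-05.

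TRINITY_DN3895_c0_g1_i2_4 came next. It was at 748.9, 243.8 and 331.4 CPM in control, 1121, 2600.1 and 1555 with trifluralin, 2321, 4946 and 5209 with pendimethalin, 3.48, 2.81 and 2.54 with S-metolachlor and 50.9, 348.6 and 55.1 with acetochlor. The dinitroaniline libraries were above all controls and the S-metolachlor libraries below all of them. Against control, pendimethalin was called higher (log2 fold change 3.24, edgeR adjusted p = 0.0131) and S-metolachlor lower (-7.23, 5.03e-05). Trifluralin (1.99, 0.0698) and acetochlor (-1.54, 0.181) were not called. The pooled log2 difference was -0.88, with a 95% interval of -1.96 to 0.19 (edgeR adjusted p = 0.209). The log2 scale decides that sign, since the mean of the 4 herbicide means in CPM was 3.44 times the control mean.

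Features that the contrast did not use differed between rises and falls. The ratio of expected count to FPKM stands for transcript length, up to a factor, and could be computed for every tested transcript. In 4 bins of equal size, from the shortest to the longest, rises were called in 4.33%, 9.91%, 14.9% and 20.9% of transcripts, and falls in 10.2%, 16%, 18.9% and 13.5%. Rises were thus more frequent than falls in the longest bin alone, at 916 against 593, and fewest against falls in the shortest, at 190 against 448. Longer transcripts collect more counts at the same abundance, and the part of that in these shares was not tested.

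Each transcript name ends in a digit from 1 to 5 that the sources used here do not explain. Rises were called in 12.7%, 13.1%, 13.7%, 13.1% and 10.4% of the names ending in 1 to 5, and falls in 14.9%, 14.9%, 17.7%, 10.9% and 14.7%. Names ending in 4 were the only ones with more rises than falls, 436 against 362. Differences among herbicides were called in 48.8% of names ending in 1 and in 35.3% to 39.8% of the others.

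Transcripts that share a Trinity gene name, the assembler's grouping of related sequences, often differed in direction where more than 1 was called. Of 4052 such groups with more than 1 tested transcript, 426 had 2 or more pooled calls. In 215 of them all called transcripts went the same way, and in 211 at least 1 rose while another fell. With 2196 rises and 2573 falls among all pooled calls, unrelated transcripts would also often differ in direction and often go the same way. Whether the groups agreed more or less than that was not tested. Reads of near-identical transcripts may have been divided between them by the authors' counting, and names that differ in their last digit may not belong to 1 gene, so single transcript values are uncertain in that respect. With counts summed per Trinity gene name, 3738 of 12525 were called, 1760 higher and 1978 lower.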

How the data were processed

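The authors deposited expected counts per assembled transcript, which are not scaled to a common total, and FPKM, the deposited values per length and library total. Trimmomatic, Bowtie2 and DESeq are named, without versions, in the submitters' processing notes, as is mm10, which is a mouse build, whereas the 20602 rows carry Trinity assembly names. The sources used here do not give the counting program. The design assumed raw counts; expected counts were rounded to whole numbers. Low counts were removed (filterByExpr, at least 10 in enough libraries and 15 in all), libraries were scaled by TMM and edgeR 4.0.16 fitted a quasi-likelihood model with 1 mean per group over 15 libraries (10 residual degrees of freedom), in R 4.3.3. The pooled contrast, the F-test among herbicides and each herbicide against the other 3 were adjusted by Benjamini-Hochberg over 17555 transcripts. The standard error is the size of the log2 change over the square root of F. The test was checked on simulated counts. Alternatives used DESeq2 1.42.0 and limma 3.58.1.

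The comparison, the rules for naming transcripts and the tests were chosen with earlier results of these data known. Among pooled calls, transcripts were named by the largest change without overlap between the 12 herbicide and 3 control libraries, by the smallest range of the 4 changes under the same condition with at least 4-fold pooled change, and by the smallest p among herbicides; among the others called for differences among herbicides, by the widest range where 1 herbicide was called higher and another lower than control. The first 2 rules needed 10 CPM in the control or the herbicide mean, the others in the highest group. Planned gene lists could not be applied because transcripts carry no gene names.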

Additional observations from a re-analysis of the deposited data

Results flagged for a closer look

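The 4 herbicides' effects differed from each other, by the F-test among their libraries, in 7059 transcripts. Of the transcripts named above, TRINITY_DN8019_c1_g2_i8_3 (edgeR adjusted p = 2.72e-09), TRINITY_DN1902_c0_g1_i1_3 (1.93e-07), TRINITY_DN4685_c0_g1_i2_1 (2.97e-07) and TRINITY_DN3800_c0_g1_i3_2 (4.33e-07) were chosen for that difference. TRINITY_DN3895_c0_g1_i2_4 (2.55e-05) and TRINITY_DN7825_c0_g1_i2_5 (2.92e-05) were chosen for opposed changes. The transcripts with the largest pooled changes under the conditions of no overlap and at least 10 CPM differed among herbicides as well. The edgeR adjusted p was 4.19e-05 for TRINITY_DN8555_c0_g2_i1_1, 0.0294 for TRINITY_DN10594_c0_g1_i1_3, 0.000766 for TRINITY_DN13795_c0_g1_i1_3 and 0.00145 for TRINITY_DN2242_c0_g1_i1_1.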

How the results depend on the processing

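The number of pooled calls stayed within 1.5 times of 4769 under 13 of 17 alternatives beside leaving out libraries; it was 7200 in limma voom with sample quality weights, 2426 without the S-metolachlor group, 1401 with the 12 herbicide libraries as 1 group and 728 in glmTreat against 2-fold. Differences among herbicides numbered 176 without the S-metolachlor group and stayed within 1.5 times of 7059 in the other 14. Leaving out each library in turn gave 2605 to 5462 pooled calls, 4827 to 7972 for differences among herbicides, 478 to 1238 for trifluralin against the others, 344 to 949 for pendimethalin, 5760 to 8275 for S-metolachlor and 943 to 3159 for acetochlor. DESeq2 called 2243 for trifluralin, 1787 for pendimethalin and 3694 for acetochlor against the others. With the replicate block these were 755 for trifluralin and 423 for pendimethalin, and the pooled count was 4278. Same-numbered libraries' deviations correlated at -0.55 to 0.50, over 0.1 in 7 of 30 pairs, and 3 of 15 libraries correlated best with their own number. These values show no pairing of libraries by replicate number, and with 3 libraries per group they cannot exclude one. Without S-metolachlor the pooled change of TRINITY_DN8019_c1_g2_i8_3 was -0.76 and that of TRINITY_DN3800_c0_g1_i3_2 was 0.10. Without the set that stood out in S-metolachlor replicate 1, an alternative chosen after seeing the data, 4808 pooled calls were made. The causes were not tested. Calls were fewest at low levels, where the lowest of 4 equal bins of mean CPM held 127 rises and 375 falls; the part of depth in this was not tested.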
